A study of Mus musculus with 16 samples.

Results

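Control mouse livers of 2 weeks after birth (W2) were compared with Control livers of 1 week (W1) to describe how gene expression changed over this interval of normal postnatal growth. The comparison rested on 4 libraries, namely 2 of W2 Control and 2 of W1 Control, out of 16 libraries in the series. Of 53379 genes in the table, 12414 had at least 1 FPKM (fragments scaled by exon length and by the mapped reads of the library) in at least 2 of these 4 libraries and did not carry a symbol starting with mt-, and these genes were tested. Among them, 11097 were protein coding.

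All mice were C57BL/6J. The other libraries came from Control livers of postnatal day 1 (P1) and 4 weeks (W4), and from livers of hepatic Mettl3 knockout (cKO) mice at the same 4 ages, with 2 libraries for each of 8 groups. Per the study's methods, cKO mice were Mettl3 flox/flox and carried Cre recombinase under the albumin promoter, Controls were wild-type littermates, and each library of a group was a different mouse. Whole liver was frozen and poly(A) RNA was sequenced, so a library holds RNA of every cell type of the organ.

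In the first weeks after birth the rodent liver ceases to be a site of blood formation, the division of hepatocytes slows, and genes of the fetal hepatocyte are shut off. The study places the end of blood formation in the liver within days of birth, before this interval. The pup still lives mainly on milk, which is rich in fat and poor in carbohydrate, and genes for handling glucose, bile acids and foreign compounds come on in steps before and after weaning. Hepatocytes make most of the RNA of the organ, while erythroid and myeloid precursors, Kupffer cells (the resident macrophages), sinusoidal endothelial cells and stellate cells (the vitamin A storing cells of the sinusoid) make the rest. In these bulk samples, fewer cells of a type and less RNA per cell cannot be told apart.

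The depth, estimated from the steps between low FPKM values, was 11.9 and 11.7 M reads in W2 Control, against 14.2 and 14.4 M reads in W1 Control. A single read on 2 kb of exon thus added 0.0418 and 0.0427 FPKM in W2 Control and 0.0352 and 0.0348 FPKM in W1 Control. Genes encoded by the mitochondrial genome took 58.1% and 59.0% of all FPKM in W2 Control, against 29.4% and 22% in W1 Control, and their part in the results below was not tested. Since this share lowers the FPKM of every other gene, values were rescaled by median-of-ratios factors (0.810 and 0.855 in W2 Control, 1.211 and 1.193 in W1 Control), and all levels given here are rescaled FPKM. Without rescaling, the median gene was lower in W2 by 0.42 on the log2 scale. The Y-linked gene Eif2s3y had 25.8 and 24.0 rescaled FPKM in W2 Control and 16.1 and 14.0 in W1 Control and Xist was at or below 0.0945 rescaled FPKM, so all 4 livers were male. The 10 genes that define hepatocytes were all tested, and Alb, the serum albumin gene, stood at 23700 and 27100 rescaled FPKM in W2 Control and at 34700 and 41100 in W1 Control.

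Between the ages, 1532 genes were higher in W2 Control (12.3% of the genes tested) and 1777 were lower (14.3%) by limma at an adjusted p under 0.05. On the scale as deposited, the split was 312 higher and 5015 lower. The groups did not overlap for any called gene, but with 2 livers a group a call nearly requires this, so it adds no support. The median log2 change of all genes tested was 0.00. Of the called genes, 316 were higher and 653 were lower by more than 1 on the log2 scale, and 44 were higher and 108 lower by more than 2. The counts depended on each library: 761 and 1142 genes were higher and lower without W2 Control replicate 1, 1000 and 1166 without W2 Control replicate 2, 597 and 908 without W1 Control replicate 1, and 622 and 916 without W1 Control replicate 2. These fits share most of their libraries with the fit of all libraries, so agreement in direction with it adds little support.

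**Figure D1:**
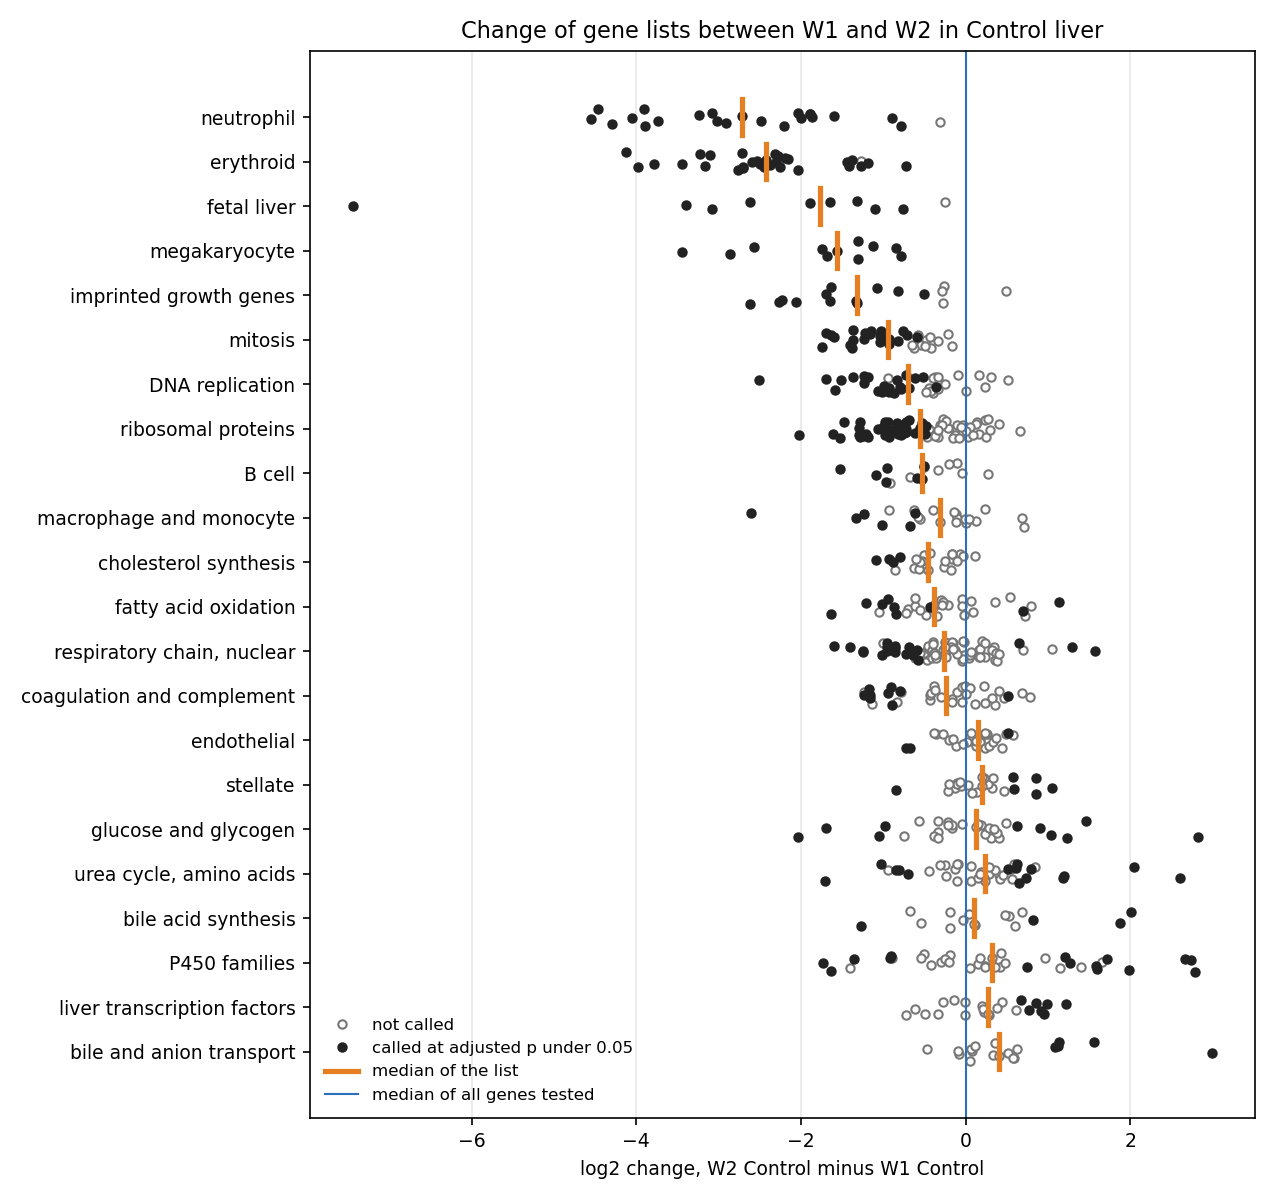
Log2 change (x axis, W2 Control minus W1 Control) of each tested member of 22 gene lists (y axis), filled where called by limma, with the median of each list in orange and that of all genes tested in blue. Neutrophil, erythroid, fetal and megakaryocyte genes lie far to the left (medians -2.71, -2.42, -1.77 and -1.56), whereas the lists of hepatocyte metabolism spread to both sides of 0.

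The lowest log2 change of the genes named here was that of Afp, which encodes alpha-fetoprotein, the main plasma protein of the fetus. Afp stood at 14.8 and 11.3 rescaled FPKM in W2 Control, against 3090 and 1900 in W1 Control, a log2 change of -7.44 ± 0.60 (SE, n = 2 livers each, limma, adjusted p = 8.33e-06). Of 10 tested fetal liver genes, 9 were lower and 0 were higher in W2 Control, with a median log2 change of -1.77. Cd24a, a surface glycoprotein of progenitor cells, had 4.48 and 6.18 rescaled FPKM in W2 Control, against 66.3 and 64.0 in W1 Control. Gpc3, the oncofetal heparan sulfate proteoglycan glypican 3, had 4.00 and 1.84 in W2 Control, against 30.0 and 31.4 in W1 Control. The log2 changes were -3.40 ± 0.33 for Cd24a (limma, adjusted p = 3.9e-05) and -3.08 ± 0.43 for Gpc3 (limma, adjusted p = 0.000544). Both genes lay far below their W1 values in each W2 liver.

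Imprinted genes that act on growth moved in the same direction as the fetal genes, with 12 of 16 tested members lower, 0 higher and a median log2 change of -1.33. Cdkn1c, the cyclin-dependent kinase inhibitor p57, had 15.3 and 15.7 rescaled FPKM in W2 Control and 77.5 and 59.5 in W1 Control (log2 change -2.06 ± 0.23, limma, adjusted p = 0.000128). Grb10, an adaptor that restrains insulin and IGF receptor signalling, had 14.1 and 11.3 in W2 Control and 43.6 and 42.3 in W1 Control (log2 change -1.69 ± 0.21, limma, adjusted p = 0.000295). The W2 and W1 livers did not overlap in either gene, which a call with 2 livers a group nearly requires. Igf2, the fetal growth factor, and Dlk1, a transmembrane protein of fetal progenitors, were low at both ages in this table: Igf2 had 0.48 and 0 rescaled FPKM in W2 Control and 1.75 and 2.37 in W1 Control, and Dlk1 had 0.398 and 0.0854 in W2 Control and 2.27 and 3.59 in W1 Control. The long noncoding RNAs Rian and Mirg of the Dlk1 locus had log2 changes of -2.23 ± 0.25 and -1.64 ± 0.21 (limma, adjusted p = 0.000118 and 0.000356).

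Genes of blood-forming cells fell as whole groups. Of 31 tested erythroid genes, 30 were lower and 0 higher, with a median log2 change of -2.42. The summed level of the erythroid list was 934 and 1080 rescaled FPKM in W2 Control, against 5910 and 5010 in W1 Control. Slc4a1, the anion exchanger band 3 of the red cell membrane, had 1.52 and 1.90 rescaled FPKM in W2 Control and 47.0 and 45.4 in W1 Control, a log2 change of -4.13 ± 0.16 (limma, adjusted p = 6.98e-08). Kel, which encodes the Kell blood group protease, had 0.407 and 1.18 in W2 Control and 29.7 and 23.8 in W1 Control (-3.98 ± 0.19, limma, adjusted p = 1.5e-07). Trim10, Epb42 (protein 4.2 of the membrane skeleton) and Tspo2 had log2 changes of -3.16, -2.72 and -2.59. Globin remained the most abundant erythroid RNA at both ages: Hba-a1 had 342 and 453 rescaled FPKM in W2 Control and 2980 and 2200 in W1 Control, and Hbb-bs had 354 and 448 in W2 Control and 1850 and 2020 in W1 Control. The globin genes have near-identical copies, so their single values are uncertain.

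Neutrophil genes fell too. Of 23 tested neutrophil genes, 22 were lower and 0 higher, the median log2 change was -2.71, and the summed level was 120 and 67.7 rescaled FPKM in W2 Control, against 1860 and 1120 in W1 Control. Camp, the cathelicidin of secondary granules, had 5.03 and 3.41 rescaled FPKM in W2 Control and 146 and 87.1 in W1 Control (log2 change -4.46 ± 0.42, limma, adjusted p = 2.94e-05). S100a9, a subunit of calprotectin, had 35.1 and 19.1 in W2 Control and 562 and 354 in W1 Control (-4.05 ± 0.53, limma, adjusted p = 0.000354). The primary granule proteases Elane and Prtn3, made by the early precursors, also fell, with log2 changes of -2.71 ± 0.24 and -3.02 ± 0.27. Ltf (lactoferrin), Ngp and S100a8 had log2 changes of -3.91, -4.30 and -3.90. Genes of the stefin A cluster, Stfa1, Stfa2, Stfa2l1 and Stfa3, had log2 changes between -4.87 and -3.74, but they are near-identical copies and their single values are uncertain.

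All 11 tested megakaryocyte and platelet genes were lower. Pf4, platelet factor 4, had 4.20 and 6.42 rescaled FPKM in W2 Control and 45.1 and 43.0 in W1 Control, a log2 change of -2.86 ± 0.25 (limma, adjusted p = 1.96e-05). Ppbp, another chemokine of the platelet granule, fell by 3.45 ± 0.33 on the log2 scale. B-lineage genes were split, with 7 of 15 lower and 0 higher. Igll1 and Vpreb1, the surrogate light chains of the pre-B cell, had log2 changes of -1.52 ± 0.18 and -1.09 ± 0.23. Ighm, the mu heavy chain, stood at 29.7 and 28.7 rescaled FPKM in W2 Control and at 67.5 and 49.7 in W1 Control (limma, adjusted p = 0.00818). The 6 tested T and NK cell genes had log2 changes between -0.40 and 0.29, none past the threshold of limma. The counts of these lists without each of the 4 libraries in turn ranged from 29 to 30 lower for erythroid, 20 to 22 for neutrophil, 9 to 11 for megakaryocyte and 3 to 9 for B-lineage genes, which had 3 without W1 Control replicate 1 and 4 without W2 Control replicate 1.

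**Figure D2:**
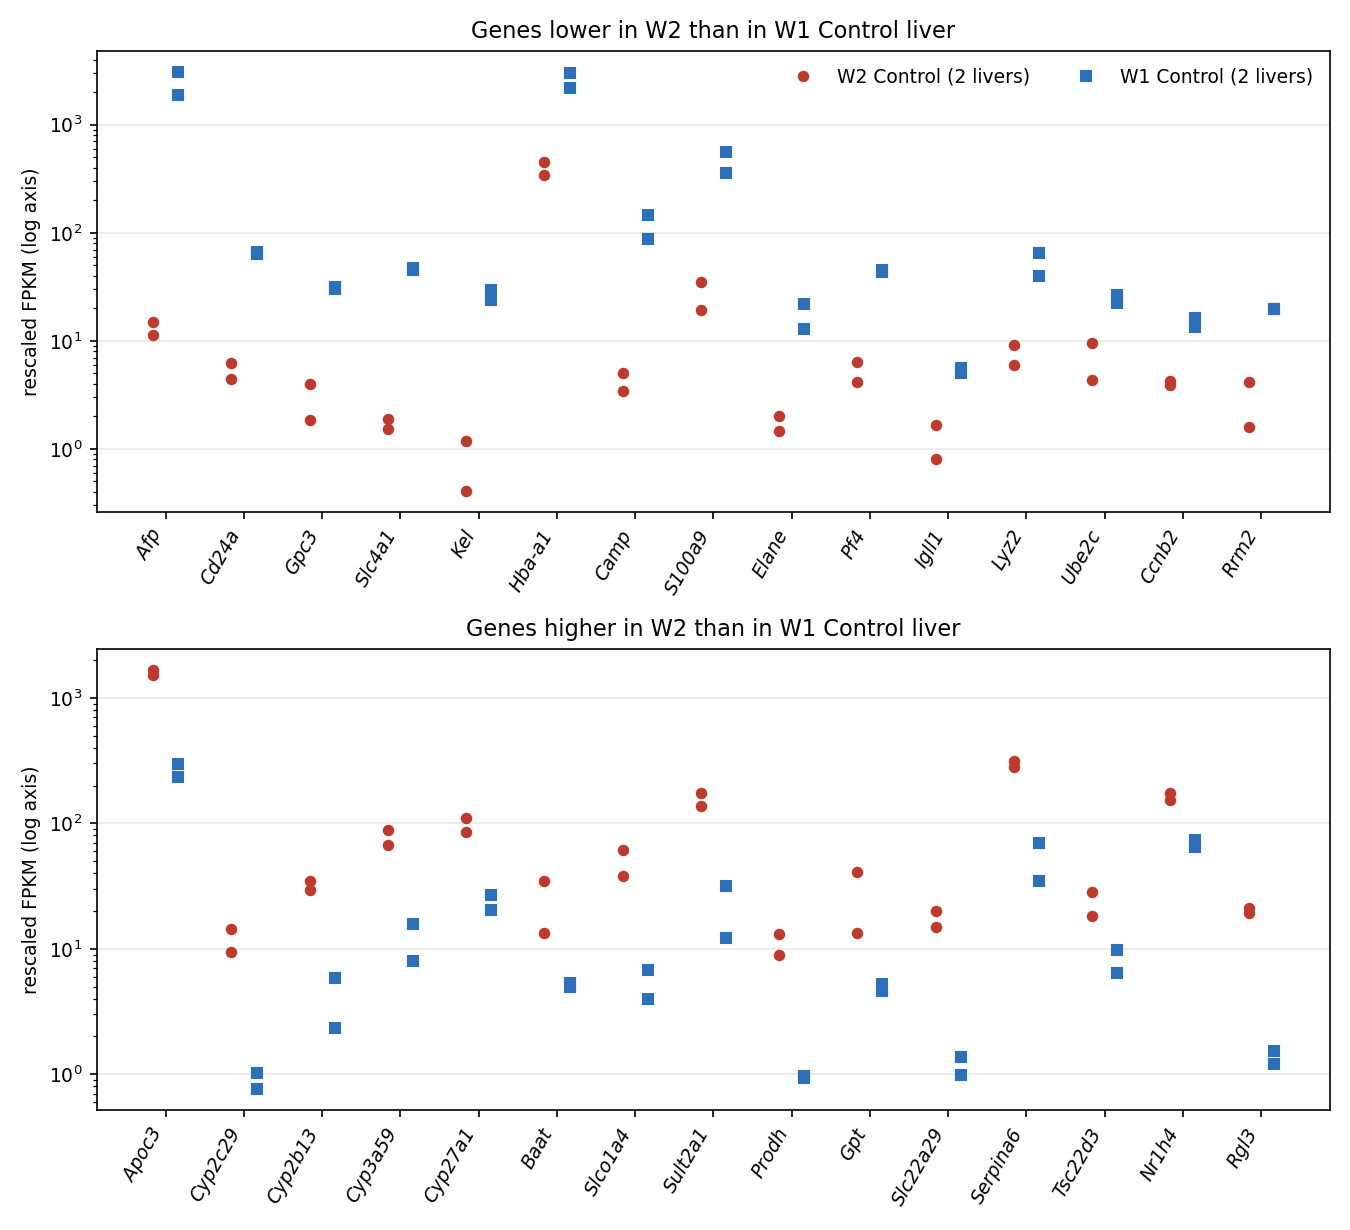
Rescaled FPKM (log axis) of 15 genes lower and 15 genes higher in W2 Control, with 1 point for each liver. The genes were picked as lower or higher, so that in each both W2 livers (red) lie on the same side of both W1 livers (blue). Afp has the widest gap, with 14.8 and 11.3 in W2 Control against 3090 and 1900 in W1 Control.

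Among the resident cells the picture was mixed. Of 23 tested genes of macrophages and monocytes, 6 were lower and 0 higher, with 3 lower without W1 Control replicate 1 and 4 without W1 Control replicate 2 or W2 Control replicate 1. Lyz2, lysozyme of myeloid cells, had 9.23 and 6.04 rescaled FPKM in W2 Control and 64.3 and 40 in W1 Control (log2 change -2.61 ± 0.33, limma, adjusted p = 0.000282). Marco, a scavenger receptor, had 9.20 and 8.30 in W2 Control and 24.0 and 20.1 in W1 Control, and Ly6c2 and Ccr2, genes of monocytes, had log2 changes of -1.33 and -0.62. Clec4f, a receptor that in mouse is made by Kupffer cells, had 57.6 and 68.0 rescaled FPKM in W2 Control and 35.9 and 39.7 in W1 Control and was not called (log2 change 0.71 ± 0.25, limma, adjusted p = 0.0551).

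Endothelial genes were called 1 higher and 2 lower of 26, and Maf, a transcription factor of sinusoidal endothelium and macrophages, had a log2 change of 0.51 ± 0.16 (limma, adjusted p = 0.0329). Stellate cell genes were called 5 higher and 1 lower of 23 (0 higher and 5 lower on the deposited scale), and 2 were higher without W1 Control replicate 1 and 3 without W1 Control replicate 2 or W2 Control replicate 1. Ecm1, an extracellular matrix protein that stellate cells secrete, had 90.8 and 84.0 rescaled FPKM in W2 Control and 43.7 and 52.0 in W1 Control (log2 change 0.86 ± 0.15, limma, adjusted p = 0.00248). Rgs5, a marker of pericytes, rose by 1.05 ± 0.20 on the log2 scale. Genes of the extracellular matrix were called 3 higher and 3 lower of 32, but 0 and 16 on the deposited scale, 0 and 2 without W2 Control replicate 1, 5 and 1 without W2 Control replicate 2, 0 and 0 without W1 Control replicate 1 (in limma, at adjusted p under 0.05) and 2 and 0 without W1 Control replicate 2. With all libraries, the matrix counts were near the 12.3% higher and 14.3% lower of all genes tested. Col3a1 (collagen III) was among the matrix genes that rose (115 and 92.7 rescaled FPKM in W2 Control, 50.1 and 62.8 in W1 Control) and Fn1 (fibronectin) among those that fell (70.8 and 75.6 in W2 Control, 150 and 163 in W1 Control).

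Cell division genes were lower at W2. Of 37 tested mitosis genes, 26 were lower, 0 were higher, and all 37 had a negative log2 change, with a median of -0.94. Of 40 DNA replication genes, 23 were lower and 0 higher, with a median of -0.71. Ube2c, the ubiquitin-conjugating enzyme of the anaphase-promoting complex, had 4.37 and 9.56 rescaled FPKM in W2 Control and 26.4 and 22.5 in W1 Control (log2 change -1.75 ± 0.27, limma, adjusted p = 0.00106). Ccnb2, a cyclin of mitotic entry, had 4.24 and 3.89 in W2 Control and 16.1 and 13.4 in W1 Control (-1.63 ± 0.21, limma, adjusted p = 0.000307). Rrm2, the small subunit of ribonucleotide reductase, had 1.60 and 4.12 in W2 Control and 19.9 and 19.8 in W1 Control (-2.51 ± 0.35, limma, adjusted p = 0.00054). E2f2, a transcription factor of the cell cycle, Cdt1, a licensing factor of replication origins, and Lig1, DNA ligase 1, had log2 changes of -1.59, -1.23 and -1.19.

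The W2 livers differed in these genes: the summed level of the mitosis list was 83.5 rescaled FPKM in W2 Control replicate 1 and 132 in replicate 2, against 277 and 241 in W1 Control. Without W2 Control replicate 1, 12 mitosis and 11 replication genes were lower, without W1 Control replicate 1, 13 and 13, and without W1 Control replicate 2, 19 and 15. The blood-forming precursors described above divide too, and their share in the fall of the cell division genes was not tested. Mki67, the proliferation antigen Ki-67, had 8.0 and 15.1 rescaled FPKM in W2 Control and 34.4 and 26.6 in W1 Control (log2 change -1.37 ± 0.35, limma, adjusted p = 0.0139), and Foxm1, a transcription factor that drives mitotic genes, had 2.46 and 5.40 in W2 Control and 5.74 and 4.23 in W1 Control and was not called.

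Promoter sequences of the erythroid, the mitosis and some other lists were searched for short motifs on both strands. RefSeq windows of build GRCm38.p6, from 250 bases before to 50 bases after a start site, matched 9096 of the 12414 genes tested (the first start listed for a gene was used). The letters TTTGAA, the core of the cell cycle homology region bound by the repressor complexes of resting cells, were found in 23 of 30 mitosis promoters (76.7%), against 12.1% of all 9096. CCAAT, the site of the factor NF-Y, was found in 23 of 30 (76.7%), against 39.0%. AGATAA, the core of a GATA factor site, was found in 10 of 21 erythroid promoters (47.6%), against 6.83% of all. In other lists, CCAAT was in 63.6% of 33 DNA replication promoters and in 52.4% of both the erythroid and the 21 neutrophil promoters, and TTTGAA was in 15.2% of DNA replication promoters. AGATAA was in 6.67% of the mitosis, 19% of the neutrophil, 17.6% of 17 liver transcription factor and 23.1% of 13 bile and anion transporter promoters. Of the other letters searched, the CACCC box CCACACCC was found in 4.76% of the erythroid promoters and 3.74% of all. The letters CAAAGTCCA, a part of an HNF4 site, were in 0.439% of promoters of 1138 genes higher in W2 Control and in 0.583% of all. Over the 1224 promoters of all genes called lower, TTTGAA was in 14.2%, CCAAT in 40.4% and AGATAA in 9.07%, each near the share of all 9096. The list shares thus describe the listed genes, and a relation of the letters to the change with age was not tested. A match is a description of the letters and does not show binding.

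The 200 bases before the start of Ccnb2 (GRCm38.p6, chr9:70421555-70421754, minus strand) and Ube2c (chr2:164769729-164769928, plus strand), both among the mitosis genes called lower, show how these letters recur, with CCAAT and TTTGAA in capitals on either strand (ATTGG and TTCAAA on the other). Sequences run from the 5′ end and are from RefSeq.
Ccnb2: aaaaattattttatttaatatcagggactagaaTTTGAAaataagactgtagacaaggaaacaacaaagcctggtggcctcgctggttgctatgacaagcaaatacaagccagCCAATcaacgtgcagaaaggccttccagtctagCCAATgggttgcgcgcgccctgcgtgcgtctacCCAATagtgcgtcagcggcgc
Ube2c: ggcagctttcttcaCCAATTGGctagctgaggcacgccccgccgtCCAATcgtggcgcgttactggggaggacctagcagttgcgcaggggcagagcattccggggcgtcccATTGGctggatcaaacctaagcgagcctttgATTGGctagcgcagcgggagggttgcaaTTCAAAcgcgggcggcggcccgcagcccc
In Ccnb2 the letters CCAAT start at -87, -54 and -21 and TTTGAA at -167, counted from the start site, and in Ube2c CCAAT starts at -186 and -155, ATTGG at -183, -88 and -57, and TTCAAA at -29. Outside the stretches shown but within the searched windows, TTTGAA also starts at 5 after the start site in Ccnb2, and CCAAT at -228 in Ube2c.

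The same windows of the erythroid genes Kel (chr6:41704326-41704525, minus strand) and Trim10 (chr17:36869374-36869573, plus strand), both called lower, are shown for AGATAA, in capitals, or TTATCT on the other strand.
Kel: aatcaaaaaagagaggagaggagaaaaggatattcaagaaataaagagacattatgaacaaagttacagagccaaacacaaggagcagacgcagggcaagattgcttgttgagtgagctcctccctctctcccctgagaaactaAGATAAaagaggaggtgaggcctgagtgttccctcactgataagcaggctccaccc
Trim10: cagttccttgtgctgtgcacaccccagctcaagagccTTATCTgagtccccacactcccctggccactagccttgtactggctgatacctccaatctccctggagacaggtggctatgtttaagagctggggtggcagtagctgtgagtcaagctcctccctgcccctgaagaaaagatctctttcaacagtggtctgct
AGATAA starts at -56 in Kel and TTATCT at -163 in Trim10.

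No tested transcription factor of the hepatocyte list was called lower on the rescaled values. Of 23 tested, 7 were higher and 0 lower, beside 12.3% and 14.3% of all genes tested, with a median log2 change of 0.27. The log2 change was positive in 15 and negative in 8, with a lowest value of -0.73. On the deposited scale, which carries the shift of all genes, 1 was higher and 6 lower. Nr1h4, the bile acid receptor FXR, had 153 and 174 rescaled FPKM in W2 Control and 73.9 and 65.1 in W1 Control (log2 change 1.22 ± 0.20, limma, adjusted p = 0.00129). Cebpb, a factor of the acute phase and of metabolism, and Nr1h3 (the oxysterol receptor LXR alpha) rose by 0.99 ± 0.21 and 0.67 ± 0.16 on the log2 scale. Hnf4a, a central regulator of hepatocyte genes, stood at 67.6 and 72.5 rescaled FPKM in W2 Control and at 54.0 and 60.9 in W1 Control and was not called (0.28 ± 0.18, limma, adjusted p = 0.259, and -0.24 on the deposited scale).

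Of 16 tested genes of the m6A machinery, 4 were higher and 1 was lower (0 higher and 9 lower on the deposited scale). These counts stand beside 12.3% higher and 14.3% lower of all genes tested. Mettl3, the catalytic subunit that writes m6A on mRNA, had 6.10 and 7.50 rescaled FPKM in W2 Control and 4.51 and 4.63 in W1 Control (log2 change 0.48 ± 0.13, limma, adjusted p = 0.0212). Zc3h13 and Wtap, subunits of the writer complex, and Ythdc1, a nuclear reader, rose by 0.90, 0.49 and 0.62 on the log2 scale. Igf2bp3, an oncofetal RNA-binding protein, fell by 0.76 ± 0.17 on the log2 scale.

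Cytochrome P450 genes of families 1 to 3 were called higher for 10 of 39 and lower for 5. On the deposited scale, 7 were higher and 8 lower. All genes tested had 12.3% higher and 14.3% lower, so the lower count was near that share. Cyp2c29 had 9.45 and 14.3 rescaled FPKM in W2 Control and 0.759 and 1.03 in W1 Control (log2 change 2.74 ± 0.40, limma, adjusted p = 0.000685). Cyp2b13 had 34.6 and 29.6 in W2 Control and 2.35 and 5.83 in W1 Control (2.79 ± 0.47, limma, adjusted p = 0.00161), and Cyp3a59 had 66.7 and 88.4 in W2 Control and 8.0 and 15.7 in W1 Control (2.67 ± 0.48, limma, adjusted p = 0.00248). Cyp2c44 went the other way, at 40.8 and 37.8 in W2 Control and 111 and 138 in W1 Control (-1.63 ± 0.24, limma, adjusted p = 0.000757), as did Cyp3a41a and Cyp3a41b, which are near-identical copies with uncertain single values. Among conjugating enzymes, 4 of 37 were higher and 6 lower (2 higher and 17 lower on the deposited scale), shares close to those of all genes tested. The sulfotransferase Sult2a1 had 137 and 175 rescaled FPKM in W2 Control and 12.1 and 31.4 in W1 Control, whereas the glutathione transferases Gstm5, Gstm4 and Gstm6 had log2 changes of -1.19, -1.01 and -0.95.

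Genes of bile acid synthesis and transport included several with large rises. Cyp27a1, the sterol 27-hydroxylase of the alternative pathway, had 110 and 85.2 rescaled FPKM in W2 Control and 20.4 and 26.6 in W1 Control (log2 change 2.01 ± 0.29, limma, adjusted p = 0.000748). Baat, which conjugates bile acids to taurine or glycine, had 13.4 and 34.8 in W2 Control and 5.31 and 5.00 in W1 Control (1.88 ± 0.34, limma, adjusted p = 0.0024). Cyp8b1, the sterol 12-alpha-hydroxylase that makes cholic acid, fell by 1.27 ± 0.41 on the log2 scale (limma, adjusted p = 0.0379). In all, 3 of 16 synthesis genes were higher and 1 lower. For transport, 5 of 19 genes were higher and 0 lower (4 higher and 1 lower on the deposited scale). These counts stand beside 12.3% higher and 14.3% lower of all genes tested. The uptake carrier Slco1a4 had 37.8 and 61.7 rescaled FPKM in W2 Control and 3.95 and 6.83 in W1 Control, and the bile salt export pump Abcb11 had 73.0 and 82.5 in W2 Control and 32.2 and 40.6 in W1 Control. Their log2 changes were 2.99 ± 0.37 (limma, adjusted p = 0.000243) and 1.08 ± 0.19 (limma, adjusted p = 0.00233).

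Of 42 tested genes of the urea cycle and amino acid metabolism, 10 were higher and 5 lower (4 higher and 12 lower on the deposited scale). Prodh, proline dehydrogenase, had 8.85 and 13.2 rescaled FPKM in W2 Control and 0.971 and 0.927 in W1 Control (log2 change 2.60 ± 0.31, limma, adjusted p = 0.00019). Gpt, alanine aminotransferase, had 13.4 and 41.0 in W2 Control and 5.26 and 4.59 in W1 Control, Tat, tyrosine aminotransferase, rose by 1.18 ± 0.19 on the log2 scale and Arg1, the arginase of the urea cycle, by 1.19 ± 0.27. Asns, asparagine synthetase, fell to 4.95 and 1.13 rescaled FPKM in W2 Control, against 9.91 and 11.5 in W1 Control (-1.71 ± 0.40, limma, adjusted p = 0.00992), and its log2 change was -2.49 without W2 Control replicate 1 and -0.98, no longer called, without W2 Control replicate 2, and the call was also lost without W1 Control replicate 2. In glucose and glycogen metabolism, 6 of 31 genes were higher and 4 lower (3 higher and 12 lower on the deposited scale), beside 12.3% and 14.3% of all genes tested. Hk1, a hexokinase of many cell types including red cells, had 1.59 and 1.65 in W2 Control and 4.94 and 3.93 in W1 Control (-1.05 ± 0.12, limma, adjusted p = 0.000188). Galk1, the galactokinase that handles the sugar of milk lactose, fell by 2.04 ± 0.39 on the log2 scale, and Ppp1r3b, a glycogen-targeting subunit of protein phosphatase 1, rose by 1.23 ± 0.25.

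Of 26 tested lipoprotein genes, 2 were higher and 3 lower, beside 12.3% higher and 14.3% lower of all genes tested. Apoc3, an apolipoprotein that slows the clearance of triglyceride-rich particles, had 1520 and 1670 rescaled FPKM in W2 Control and 234 and 296 in W1 Control (log2 change 2.59 ± 0.35, limma, adjusted p = 0.000428). Apoh, beta-2-glycoprotein 1, had 712 and 601 in W2 Control and 1530 and 1620 in W1 Control (-1.27 ± 0.25, limma, adjusted p = 0.00395). Fatty acid oxidation genes were called 2 higher and 7 lower of 35, and Acaa2, the mitochondrial 3-ketoacyl-CoA thiolase, had 119 and 108 rescaled FPKM in W2 Control and 299 and 418 in W1 Control (-1.63 ± 0.33, limma, adjusted p = 0.00428). Cholesterol synthesis genes were called 4 lower and 0 higher of 23 (9 lower without W2 Control replicate 1, and 1 without W2 Control replicate 2 or without W1 Control replicate 2), and 22 of the 23 had a negative log2 change. In lipogenesis, Acaca (acetyl-CoA carboxylase 1) and Me1 (malic enzyme) rose by 1.03 ± 0.19 and 0.92 ± 0.17 on the log2 scale, whereas Fads1, a fatty acid desaturase, fell by 1.20 ± 0.21.

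Some major secreted proteins were lower. The counts below stand beside 12.3% higher and 14.3% lower of all genes tested. Of the 10 genes that define hepatocytes, 3 were lower and 0 higher, and 4 had a positive log2 change of up to 0.84, among them Apoa1. Ttr (transthyretin) had 6300 and 5020 rescaled FPKM in W2 Control and 12700 and 13700 in W1 Control (log2 change -1.23 ± 0.21, limma, adjusted p = 0.00175), and Ahsg (fetuin A) had 8140 and 5710 in W2 Control and 17600 and 19500 in W1 Control (-1.44 ± 0.28, limma, adjusted p = 0.00383). Of 36 coagulation and complement genes, 8 were lower, among them Kng1 (kininogen), C3 and Serpind1 (heparin cofactor II) with log2 changes of -1.17, -1.24 and -1.16, and F7 alone was higher. Of 15 acute phase genes, 6 were lower and 0 higher. Of these, Lcn2 (lipocalin 2), which neutrophils also make, had a log2 change of -2.91 ± 0.28, and Hpx (hemopexin) of -0.84 ± 0.23. Of 19 tested genes of iron handling, 6 were lower and 3 higher, with log2 changes from -3.47 to 1.88. Hamp, the iron hormone hepcidin, had 1.51 and 2.66 rescaled FPKM in W2 Control and 15.5 and 67.5 in W1 Control (-3.47 ± 0.94, limma, adjusted p = 0.0184), and Tfrc, the transferrin receptor, which erythroid precursors make at high levels, fell by 1.37 ± 0.19.

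Of 14 genes of glucocorticoid and thyroid hormone action, 4 were higher and 1 was lower. Serpina6, the corticosteroid-binding globulin of plasma, had 279 and 312 rescaled FPKM in W2 Control and 34.7 and 69.8 in W1 Control (log2 change 2.56 ± 0.51, limma, adjusted p = 0.00418). Tsc22d3, the glucocorticoid-induced leucine zipper, had 28.3 and 18.4 in W2 Control and 6.44 and 9.69 in W1 Control (1.42 ± 0.24, limma, adjusted p = 0.00183). In the growth hormone and IGF list of 19 genes, 2 were higher and 4 lower, beside 12.3% higher and 14.3% lower of all genes tested. Stat5a was up by 0.99 ± 0.21 and Igfbp2 down to 759 and 356 rescaled FPKM in W2 Control, against 1460 and 1890 in W1 Control (-1.67 ± 0.35, limma, adjusted p = 0.00513). Of 18 circadian genes, 5 were higher and 2 lower, and Per2, a clock repressor, had 17.5 and 17.1 in W2 Control and 8.18 and 8.57 in W1 Control (0.96 ± 0.21, limma, adjusted p = 0.00658). The sources used here do not state at what time of day livers were taken. In the interferon list of 31 genes, 5 were higher and 1 was lower, but 1 and 5 on the deposited scale, and the median log2 change of the list was 0.30 with all libraries and -0.23 without W2 Control replicate 2. Stat2, which transduces the interferon signal, had 67.7 and 83.1 rescaled FPKM in W2 Control and 30.1 and 28.4 in W1 Control (1.33 ± 0.23, limma, adjusted p = 0.00213).

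The counts of the metabolic and regulatory lists were smaller in most fits that left out 1 library. With all libraries, several of these lists came near the shares of all genes tested, 12.3% higher and 14.3% lower. With W2 Control replicate 1, W2 Control replicate 2, W1 Control replicate 1 and W1 Control replicate 2 left out in turn, 6, 4, 3 and 4 liver transcription factors, 4, 1, 2 and 1 genes of the m6A machinery, and 11, 5, 6 and 9 P450 genes were higher. In the same order, 5, 4, 3 and 5 genes of the urea cycle and amino acid metabolism and 3, 5, 3 and 4 genes of glucose and glycogen metabolism were higher, and bile and anion transporters stayed at 4 in each. For the lists that leaned lower, the counts in that order were 5, 1, 5 and 1 for fatty acid oxidation, 5, 4, 5 and 3 for coagulation and complement, 3, 1, 1 and 2 for the acute phase, and 4, 3, 3 and 3 for iron. Interferon genes called higher numbered 4, 1, 1 and 1 and those called lower 0, 3, 0 and 0, and circadian genes called higher numbered 2, 6, 3 and 3. Conjugating enzymes called higher numbered 3, 3, 1 and 3 and those called lower 2, 6, 3 and 3. On the deposited scale, 0 circadian genes were higher and 2 lower, 0 growth hormone and IGF genes higher and 8 lower, 1 lipoprotein gene higher and 10 lower, 2 bile acid synthesis genes higher and 5 lower, and 0 endothelial genes higher and 5 lower.

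Some calls of named genes were lost when a library was left out. Without W2 Control replicate 1, the calls of Cebpb, Col3a1, F7, Fn1, Gstm4, Gstm6, Hamp, Hpx, Maf and Mki67 were lost. Without W2 Control replicate 2, those of Asns, Cyp8b1, F7, Hpx, Maf, Mettl3, Nr1h3, Wtap and Ythdc1 were lost. Without W1 Control replicate 1, those of Adrb3, Arg1, Ccr2, Cebpb, Col3a1, Cyp8b1, F7, Fn1, Gstm4, Gstm6, Hpx, Igf2bp3, Ighm, Maf, Mettl3, Mir7052, Mki67, Nr1h3 and Wtap were lost, and without W1 Control replicate 2 those of Asns, Cycs, Cyp8b1, F7, Fn1, Hamp, Hpx, Maf, Mettl3, Nr1h3, Wtap and Ythdc1. On the deposited scale, the rises of Cebpb, Col3a1, Ecm1, F7, Maf, Mettl3, Nr1h3, Per2, Rgs5, Stat5a, Wtap, Ythdc1 and Zc3h13 were not called.

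Some of the highest log2 changes lay outside these lists. Rgl3, a Ral guanine nucleotide exchange factor, had 19.1 and 21.2 rescaled FPKM in W2 Control and 1.21 and 1.54 in W1 Control (log2 change 3.16 ± 0.17, limma, adjusted p = 5e-07). Adrb3, the beta-3 adrenergic receptor, had 17.2 and 25.4 in W2 Control and 2.07 and 6.12 in W1 Control (2.23 ± 0.47, limma, adjusted p = 0.00546). The noncoding Mir7052 and Snord118 were also among the 15 highest, but both genes are short, and Snord118 rested on at most 17 estimated reads in a library.

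Ribosomal protein genes were lower as a group, with 42 of 75 lower, 0 higher and a median log2 change of -0.55. Rplp1, a protein of the ribosomal stalk, had 143 and 144 rescaled FPKM in W2 Control and 405 and 400 in W1 Control (log2 change -1.48 ± 0.22, limma, adjusted p = 0.000768). Of 76 nuclear genes of the respiratory chain, 18 were lower and 3 higher, with a median of -0.26. Ndufa4 had 21.6 and 23.1 in W2 Control and 53.9 and 68.1 in W1 Control (-1.40 ± 0.29, limma, adjusted p = 0.00547), whereas Cycs, cytochrome c, had 6.82 and 7.88 in W2 Control and 2.86 and 2.03 in W1 Control (1.29 ± 0.28, limma, adjusted p = 0.00663). Without W1 Control replicate 2, 5 respiratory chain genes were lower, and without W2 Control replicate 1, 9. Ribosomal genes were called lower for 27 members without W1 Control replicate 1.

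The change also moved with gene length, and both of these groups hold short genes. Over protein-coding genes, the median log2 change was -0.62 for 35 genes of up to 500 bp of exon, -0.43 for 239 genes of 500 to 1000 bp, -0.19 for 1270 genes of 1000 to 2000 bp, -0.04 for 3494 genes of 2000 to 4000 bp, 0.05 for 4205 genes of 4000 to 8000 bp and 0.10 for 1852 longer genes. The share of genes called lower was 35.1% between 500 and 1000 bp and 6.10% over 8000 bp. After each library was centred within 20 bins of gene length, 38 of 75 ribosomal genes were lower and 1 higher (median -0.52), 16 of 76 respiratory chain genes were lower and 5 higher (median -0.14), and 30 of 31 erythroid, 22 of 23 neutrophil and 27 of 37 mitosis genes were lower.

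**Figure D3:**
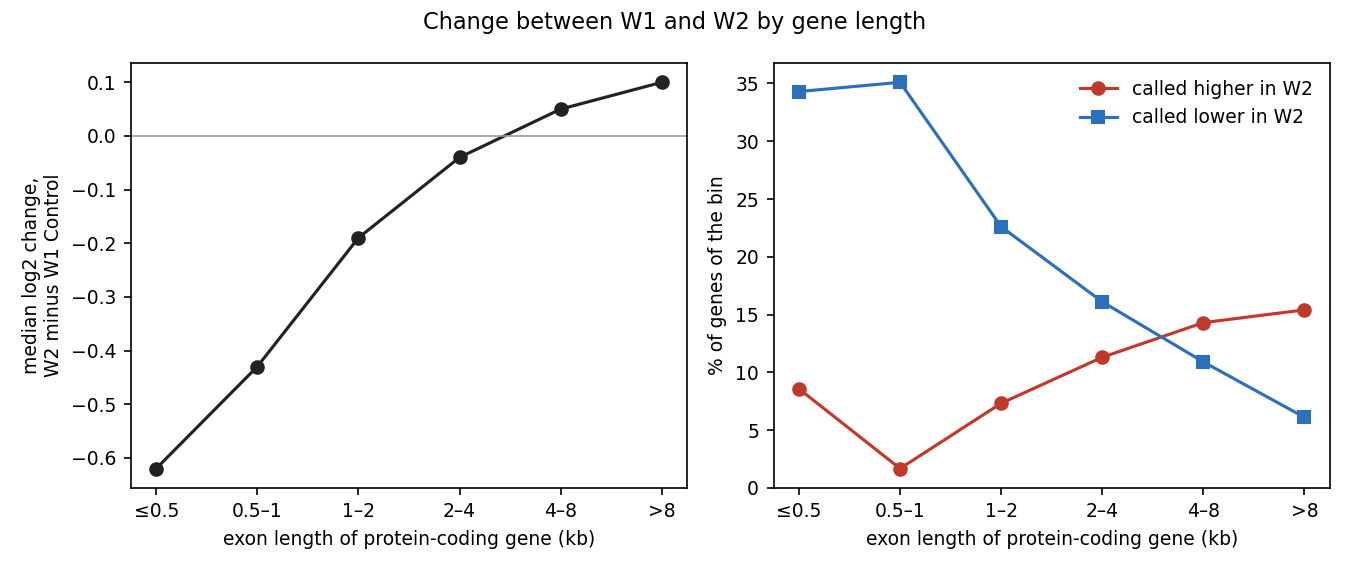
Median log2 change between W2 and W1 Control (left) and share of genes called higher or lower (right) for protein-coding genes in 6 bins of exon length (x axis, kb). The shortest genes were lowest, at -0.62, and the longest highest, at 0.10.

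Values at P1 and W4 placed the interval between its neighbours, which share its libraries and are given side by side. Afp had 6100 and 6500 rescaled FPKM at P1, 3090 and 1900 at W1, 14.8 and 11.3 at W2, and 1.53 and 2.45 at W4. Slc4a1 had 193 and 215 at P1, 47.0 and 45.4 at W1, 1.52 and 1.90 at W2, and 0.205 and 0.175 at W4. For S100a9 the values were 761 and 718 at P1, 562 and 354 at W1, 35.1 and 19.1 at W2, and 3.18 and 1.95 at W4, so that most of its decline fell between W1 and W2. Apoc3 had 117 and 72.4 at P1, 234 and 296 at W1, 1520 and 1670 at W2, and 1980 and 3550 at W4, where both W4 livers were above both W2 livers. Baat, in contrast, had 6.85 and 8.52 at P1, 5.31 and 5.00 at W1, 13.4 and 34.8 at W2, and 97.6 and 111 at W4.

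Cyp2b13 had a peak at W2, with 0.546 and 1.41 rescaled FPKM at P1, 2.35 and 5.83 at W1, 34.6 and 29.6 at W2, and 0.0382 and 1.38 at W4. Sult2a1 had 13.8 and 13.3 at P1, 12.1 and 31.4 at W1, 137 and 175 at W2, and 0 and 0.778 at W4. Both genes are known to be higher in female than in male adult mice, and all W1, W2 and W4 Control livers here were male, whereas P1 Control replicate 2 had 40.3 rescaled FPKM of Xist and was female. Slc22a29, an organic anion transporter, had 0.0711 and 0.267 at P1, 0.995 and 1.36 at W1, 14.8 and 20.1 at W2, and 0.915 and 1.05 at W4. Hamp had its lowest values at W2, with 396 and 269 at P1, 15.5 and 67.5 at W1, 1.51 and 2.66 at W2, and 273 and 898 at W4.

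**Figure D4:**
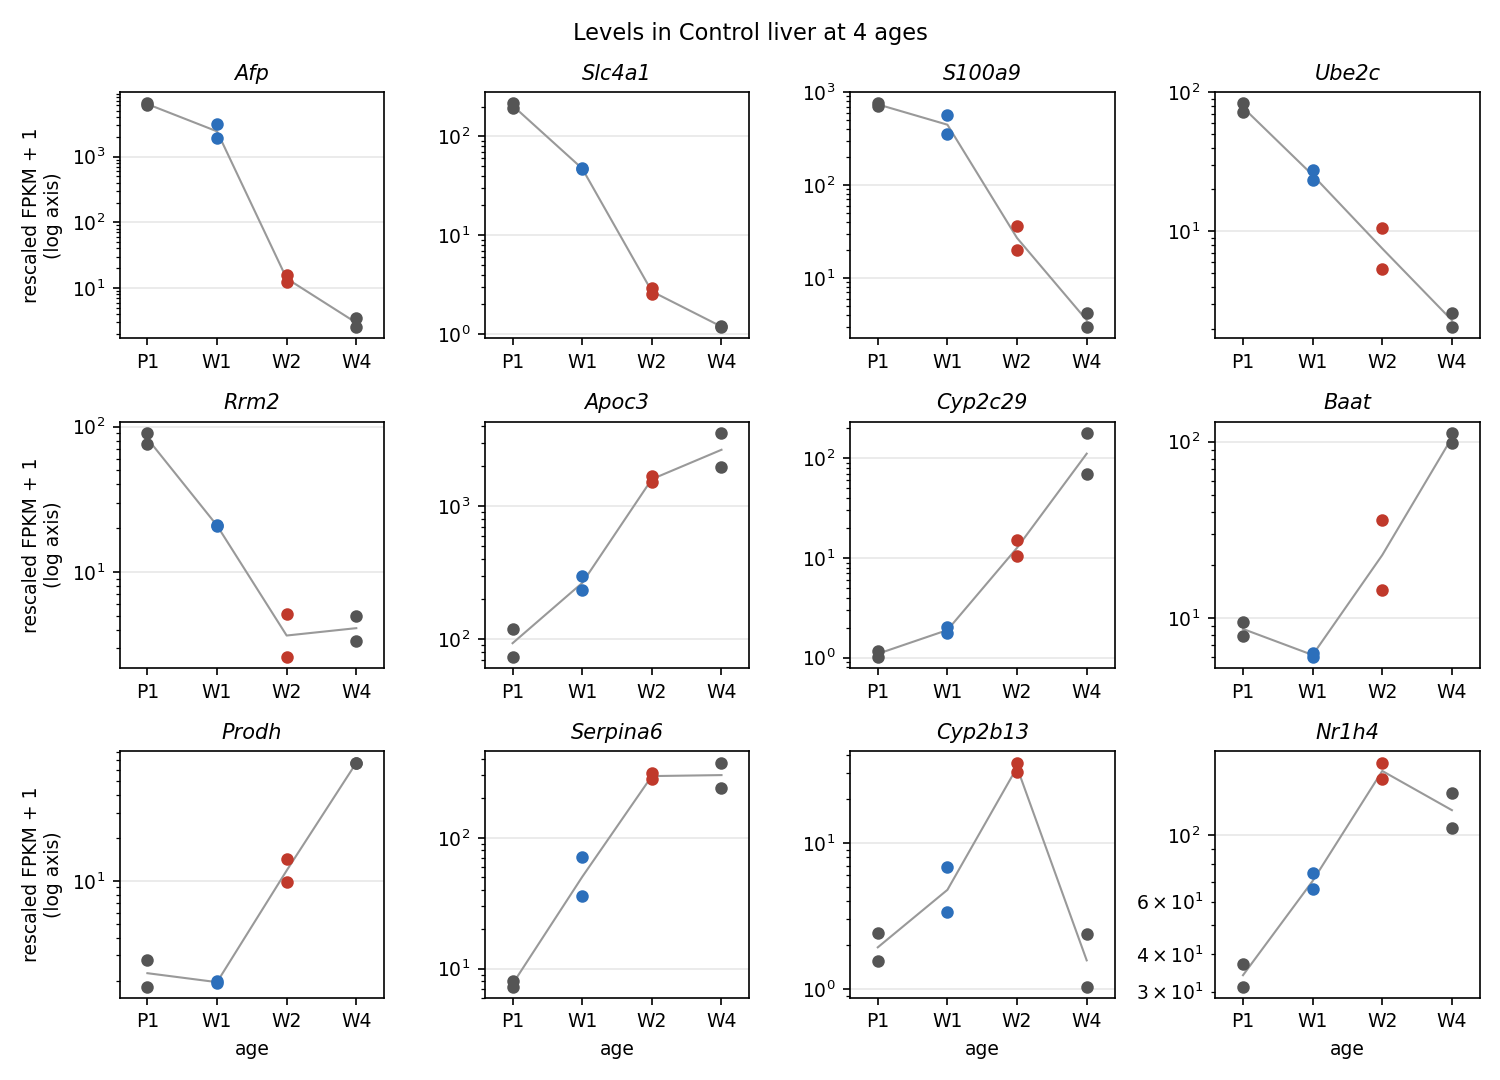
Rescaled FPKM plus 1 (log axis) of 12 genes in Control liver at P1, W1 (blue), W2 (red) and W4, with 1 point for each liver and a line through the geometric means. Afp, Slc4a1 and S100a9 drop between W1 and W2, Apoc3 and Serpina6 rise there, and Cyp2b13 is high at W2 alone.

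The same interval in cKO liver shares no library with that in Control liver. Of 1532 genes higher in Control, 1302 had a positive log2 change in cKO, and of 1777 genes lower in Control, 1461 had a negative one. The genes called in Control that had the opposite sign in cKO numbered 543. The signs in cKO over all genes tested were not counted. In cKO, 705 of the 12414 genes were called higher and 956 lower, and 308 and 595 of these were called in that direction in Control too. Genes higher by more than 1 in Control had a median log2 change of 1.26 in Control and 0.57 in cKO, and genes lower by more than 1 had a median of -1.33 in Control and -0.77 in cKO. These genes were chosen for their values in Control, so the smaller medians in cKO do not show a weaker response. The erythroid list had a median of -2.42 in Control and -2.40 in cKO, the neutrophil list -2.71 and -2.60, and the mitosis list -0.94 and -0.96. Several other lists had medians of opposite sign in Control and cKO. Medians were -0.47 in Control and 0.49 in cKO for hepatocyte-defining genes, -0.39 and 0.42 for fatty acid oxidation, and -0.26 and 0.40 for the nuclear respiratory chain. For the interferon list they were 0.30 and -0.81. The cause of these differences was not tested.

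The test of the difference between the intervals, with 1 coefficient for each group, called 17 genes (0.137% of those tested), while 2288 had an unadjusted p under 0.05. The count was 51 without W2 Control replicate 1, 17 without W2 Control replicate 2, 7 without W1 Control replicate 1 and 8 without W1 Control replicate 2. Leaving out a cKO library gave 10 without W2 cKO replicate 1, 38 without W2 cKO replicate 2, 9 without W1 cKO replicate 1 and 3 without W1 cKO replicate 2. Both W1 cKO livers were female by Xist and both W2 cKO livers were male, so that sex and age cannot be told apart within cKO. Cox6a1, a subunit of cytochrome c oxidase, had 154 and 145 rescaled FPKM in W2 Control and 335 and 382 in W1 Control, and its log2 change was -1.25 in Control and 0.68 in cKO (difference -1.93 ± 0.32, limma, adjusted p = 0.0456). Tdo2, tryptophan dioxygenase, had 24.4 and 26.8 in W2 Control and 19 and 19.2 in W1 Control, a log2 change of 0.40 that was not called, against 2.51 in cKO (difference -2.11 ± 0.30, limma, adjusted p = 0.0206). Prok1, a secreted prokineticin, had 1.24 and 1.62 in W2 Control and 18.9 and 18.4 in W1 Control, and had log2 changes of -3.02 in Control and -1.08 in cKO (difference -1.94 ± 0.23, limma, adjusted p = 0.00684).

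**Figure D5:**
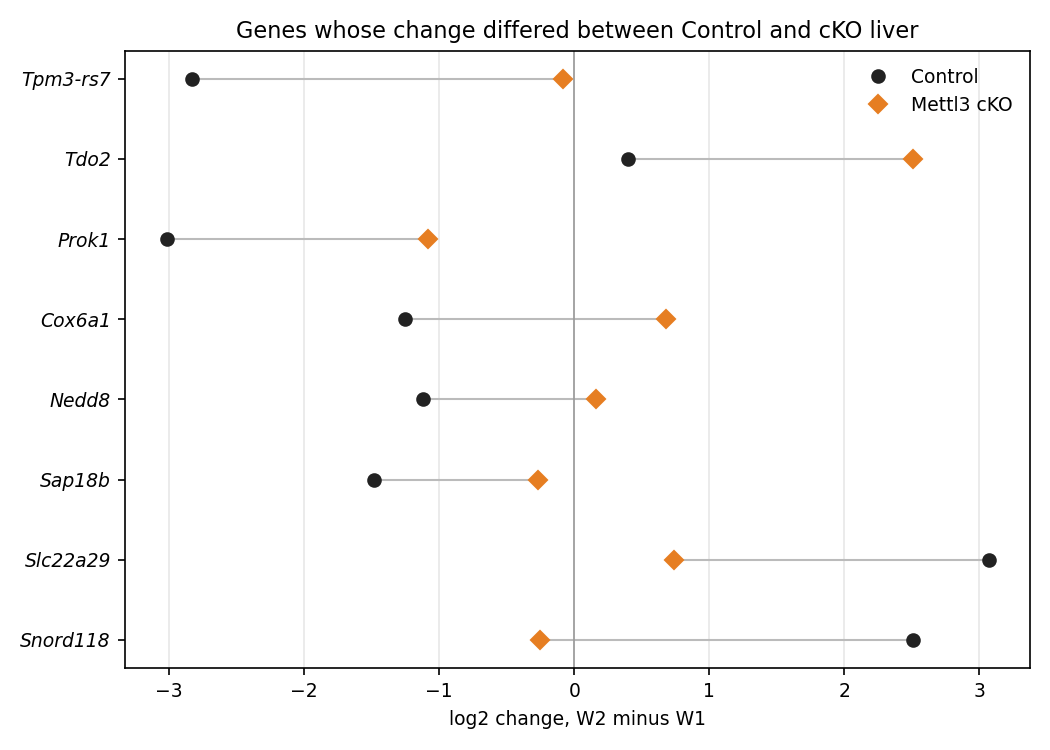
Log2 change between W2 and W1 (x axis) in Control (circles) and Mettl3 cKO liver (diamonds) of the 8 named genes whose change differed between the genotypes. Tpm3-rs7 is the gene with the lowest difference, at -2.83 in Control and -0.08 in cKO, and Snord118 the one with the highest, at 2.51 in Control and -0.25 in cKO.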

How the data were processed

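Per the labels and the study's methods, the authors took RNA from whole liver, selected poly(A) RNA, mapped reads to mm10 with HISAT2, named DESeq2 among their tools and deposited FPKM values per gene. The counting program and its gene models were not given in the sources used here, and 26 gene names had been turned into dates. Reads were recovered only in part: 56.1% to 70.5% of low values were whole to within 0.05 reads, so no count test was run and depths are estimates.

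FPKM were divided by median-of-ratios factors, taken as log2(value + 1 FPKM) and fitted with limma 3.58.1 in R 4.3.3 (intensity trend, 1 coefficient for each of 8 groups over 16 libraries, 8 residual degrees of freedom), with Benjamini-Hochberg adjustment over 12414 genes. Log2 changes understate those of low genes. Groups are 2 mice each, and p-values rest on the spread between mice of a group, pooled over all 8 groups with the cKO groups included. Replicate numbers did not pair mice (ages are different animals, and the correlation of same-numbered deviations was -0.03). On simulated data the procedure recovered 98.5% of 4-fold, 40.3% of 2-fold and 3% of 1.5-fold changes. It made 42 false calls beside 95 true ones, more than the threshold allows, and 18 calls where nothing had been changed. Of the 42, 4 were in genes with at least 20 reads. The simulation used the same dispersion (0.032) for all groups. In the data, the SD of the log2 difference between replicates was 0.41 in W2 Control and 0.31 in W1 Control.

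Named genes were the 15 highest and 15 lowest called changes with a mean of at least 5 rescaled FPKM and no overlap (names of predicted genes, pseudogenes and clones left out), up to 5 members of each list by adjusted p, exceptions to a list's direction, abundant markers, genes of the study and genes of the interaction. The genes tested and the lists were chosen with earlier results of these data known. Alternatives were the scaling, pseudocount, filter, samples, trend, block and each library left out. Centring by gene length, a minimum of 20 reads and leaving out cKO libraries were chosen after seeing the data. Some genes are not reported here.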

Additional observations from a re-analysis of the deposited data

Results flagged for a closer look

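In 8 named genes the change between W2 and W1 differed between Control and cKO liver by the interaction test of limma at an adjusted p under 0.05. The interaction is the log2 change in Control minus that in cKO. It was -2.75 for Tpm3-rs7, -2.11 for Tdo2, -1.94 for Prok1, -1.93 for Cox6a1, -1.28 for Nedd8 and -1.21 for Sap18b, and it was 2.33 for Slc22a29 and 2.76 for Snord118. Both W1 cKO livers were female and the other livers of this test were male, so that for these genes sex and age cannot be told apart within cKO. Snord118 rested on at most 17 estimated reads in a library, and Tpm3-rs7 and Sap18b resemble other genes of their families, so their single values are uncertain.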

How the results depend on the processing

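With FPKM as deposited, 312 genes were higher and 5015 lower in W2 Control, and 64 differed between Control and cKO. Requiring a log2 change over 1 left 316 higher and 653 lower, and an unadjusted p under 0.05 with a log2 change over 1 gave 344, 696 and 588. The interaction count of 17 was 6 with the total of nuclear genes as scale, 10 with 0.1 FPKM added, 34 with no filter on low values and 10 with the 8 libraries of W1 and W2 alone. With 1 library left out, 597 to 1604 genes were higher, 908 to 1842 lower and 3 to 51 differed. The replicate block gave 1453 higher, 1754 lower and 14 differing, and changed no call of a named gene. Hnf4a (-0.24) and Tdo2 (-0.10), not called in Control, were negative as deposited, and Foxm1 ranged from -0.79 to 0.11 with 1 library left out. The cause of these shifts was not tested. With 2 livers a group and 11.7 to 14.4 M estimated reads, small changes and genes of few reads could not be resolved, and 418 of the 12414 genes had under 20 estimated reads in each of the 4 libraries.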
